A study of Mus musculus with 48 samples.

Results

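Ucp1, the uncoupling protein of brown fat, was followed together with 9 genes tied to its function or control: Ucp2, Ucp3, Dio2, Ppargc1a, Ppargc1b, Prdm16, Ebf2, Zic1 and Gyk. The members were taken by gene symbol, and each of the 10 symbols matched 1 of the 56748 Ensembl identifiers counted in every library. The list was drawn up from the function of the genes and not from a threshold on their values. RNA sequencing had been done on brown adipose tissue (BAT), epididymal white adipose tissue (eWAT) and liver of male mice after 12 weeks on Western diet with 0.2% cholesterol and 21% milk fat. The mice were hepAGT-/- (KO), with angiotensinogen deleted in hepatocytes, or hepAGT+/+ littermates (WT). Housing was thermoneutral in one arm (TN, 30 °C) and at room temperature in the other (RT, 20 to 22 °C). This gave 4 groups in each of the 3 tissues, 12 groups of 4 libraries in all, and no group ate another diet. The labels name neither the driver of the deletion nor the age of the mice.

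Brown fat burns fuel to make heat. In the cold, noradrenaline released by sympathetic nerves raises cAMP in the brown adipocyte, lipolysis frees fatty acids, and these open UCP1, which lets protons leak across the inner mitochondrial membrane so that respiration yields heat in place of ATP. The same signal raises transcription of Ucp1, of Dio2, whose enzyme makes active thyroid hormone inside the cell, and of the coactivator Ppargc1a. At thermoneutrality the sympathetic drive is low, and brown fat takes on a paler, lipid-filled look. Prdm16, Ebf2 and Zic1 code for nuclear factors that mark or maintain brown fat identity, and Gyk codes for glycerol kinase, which returns the glycerol freed by lipolysis to triglyceride.

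Levels are given as CPM, the counts per megacount of the library, after TMM scaling (edgeR's trimmed mean of log ratios) within a tissue, and changes as log2 fold changes from edgeR's quasi-likelihood test with Benjamini-Hochberg adjustment over all genes tested. A change was called when its adjusted p was under 0.05. Whether groups overlap is stated for the members only, without the share over all genes, and describes the libraries. Total counts ran from 25.3 to 39.4 megacounts (M) per library in BAT, from 28.7 to 43.7 M in eWAT and from 23.7 to 36.5 M in liver. Agt, the targeted gene, ran from 276 to 504 CPM in WT liver and from 125 to 207 CPM in KO liver, with no overlap. BAT WT RT replicate 12 and BAT WT TN replicate 24 stood apart from their groups. On a scale where the mean of the other RT libraries of the genotype is 0 and the mean of its other TN libraries is 1, they lay at 0.438 and 0.52, while the other RT libraries lay between -0.105 and 0.209 and the other TN libraries between 0.747 and 1.12. Skeletal muscle markers summed to over 1000 CPM in 6 of the 16 BAT libraries. Results that rest on these libraries are given with and without them.

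The proximal promoters of 4 members are shown because the results in BAT turn on these genes and because cAMP acts on transcription through factors that bind TGACGTCA or its half-site TGACG. Each sequence is RefSeq's, on build GRCm38.p6, 300 bases 5′ to 3′ on the strand of the gene, from 250 bases before the annotated start to 50 after it. Capitals mark TGACG or its reverse complement CGTCA, which join to TGACGTCA where they overlap. The regions are chr8:83290098-83290397 on the + strand for Ucp1, chr7:100493108-100493407 on the + strand for Ucp2, chr12:90738989-90739288 on the - strand for Dio2 and chrX:85776770-85777069 on the - strand for Gyk.
Ucp1: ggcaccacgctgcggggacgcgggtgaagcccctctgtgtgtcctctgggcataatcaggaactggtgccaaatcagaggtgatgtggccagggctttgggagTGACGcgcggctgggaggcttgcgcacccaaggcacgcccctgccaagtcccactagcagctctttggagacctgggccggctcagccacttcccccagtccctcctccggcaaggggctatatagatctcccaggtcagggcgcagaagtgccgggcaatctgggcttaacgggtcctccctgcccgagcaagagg
Ucp2: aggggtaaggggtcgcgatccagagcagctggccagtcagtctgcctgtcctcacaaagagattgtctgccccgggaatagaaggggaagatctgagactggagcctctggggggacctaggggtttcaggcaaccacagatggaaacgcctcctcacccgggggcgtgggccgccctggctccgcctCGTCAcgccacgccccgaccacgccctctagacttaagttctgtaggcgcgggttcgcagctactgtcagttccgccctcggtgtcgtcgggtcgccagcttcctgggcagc
Dio2: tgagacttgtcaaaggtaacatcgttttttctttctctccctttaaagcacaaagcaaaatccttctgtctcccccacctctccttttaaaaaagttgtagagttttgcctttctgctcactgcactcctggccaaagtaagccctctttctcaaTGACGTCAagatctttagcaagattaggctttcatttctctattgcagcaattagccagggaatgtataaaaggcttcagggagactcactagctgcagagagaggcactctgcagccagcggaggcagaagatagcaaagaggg
Gyk: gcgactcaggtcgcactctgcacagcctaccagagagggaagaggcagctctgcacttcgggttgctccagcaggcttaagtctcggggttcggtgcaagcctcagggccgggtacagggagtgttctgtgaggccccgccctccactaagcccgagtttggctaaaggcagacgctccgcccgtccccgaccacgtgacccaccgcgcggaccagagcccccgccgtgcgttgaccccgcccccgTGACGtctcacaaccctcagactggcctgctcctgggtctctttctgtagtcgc

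Promoters of 8 members were found in that table. TGACG lay on either strand in 6 of them: Ucp1, Ucp2, Ucp3, Dio2, Ppargc1a and Gyk, while the windows of Prdm16 and Zic1 held none. Dio2 alone of the 8 held a full TGACGTCA, whose first base lies at -95, where -1 is the base before RefSeq's annotated start. The GENCODE annotation used for gene coordinates places Dio2 at chr12:90724552-90738438 on the - strand. The whole Dio2 window, chr12:90738989-90739288, lies upstream of that span. The distance of the site from the start thus differs between the 2 annotations. The single half-site begins at -147 in Ucp1, at -62 in Ucp2, at -49 in Ppargc1a and at -4 in Gyk. Of all 32851 promoters of this length, 20.8% held TGACG and 1.79% held TGACGTCA. A match describes the letters of the window and is not evidence of binding.

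Across tissues, the members were mostly genes of BAT, with Ucp2 and Gyk as exceptions. In a fit to all 48 libraries, 10 of the 10 members differed between BAT and eWAT, 9 of them higher in BAT, where 60.3% of all genes tested were called (6395 higher and 6809 lower, or 3701 and 10288 under library totals in place of TMM). Between BAT and liver 9 members were called, all higher in BAT, where 68.6% of all genes were called. Over all genes, 8103 were higher and 6926 lower in BAT than in liver. The members' share called was above that of all genes in both comparisons, and so was their share higher in BAT. The list was drawn up around the function of brown fat, so these counts are not a result about the members. The sizes of the differences carry the description. CPM was scaled within each tissue, whereas this fit scaled all 48 libraries together and averaged groups on the log2 scale. Ratios and lower bounds of CPM between tissues are therefore approximate and need not match the log2 differences of the fit.

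Ucp1 (ENSMUSG00000031710, chr8:83290352-83298452, GRCm38, + strand) averaged 4667 CPM over the 16 BAT libraries and 0.439 CPM over the 16 eWAT libraries, a ratio of means of 10600, and 3 eWAT libraries held no count. In liver it was at 0 counts in 15 of 16 libraries. The exception was liver KO RT replicate 19, with 383 counts or 14.7 CPM. Of the 5 brown adipocyte markers, 2 were higher in that library than in any other liver library: Cox8b at 7.40 CPM (191 counts), against at most 0.514 CPM elsewhere, and Cox7a1 at 6.74 CPM (174 counts), against at most 3.97 CPM. Cidea stood at 4.76 CPM, within the range of the other libraries (0.0663 to 26.6 CPM), Kcnk3 at 0.194 CPM, and Slc27a2, which hepatocytes express strongly, at 1540 CPM. Mature adipocyte markers summed to 152 CPM there and to between 27.1 and 48.4 CPM in the other 3 KO RT livers. They reached 158 CPM in WT RT livers and 224.5 CPM in WT TN livers, where Ucp1 held no count. Of these 6 markers, Adipoq held no count in the WT RT, WT TN and KO TN livers and was detected in the KO RT group. Which KO RT library held it is not given here. Zic1, Ebf2 and Dio2 held no count in KO RT replicate 19. The part of fat RNA in that Ucp1 value was not tested.

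Zic1, a zinc finger factor of dorsal brown fat depots, had no count in any eWAT or liver library and averaged 6.35 CPM in BAT. Against a floor of 3 counts per library, BAT was at least 60.7-fold higher than eWAT and at least 46.1-fold higher than liver. Ebf2, which opens chromatin for brown fat genes in preadipocytes and adipocytes, was shared by both fat depots. It was at 0 counts in all 16 liver libraries. Its means were 55.5 CPM in BAT and 30.8 CPM in eWAT, a ratio of 1.8. The fit to all 48 libraries gave a log2 difference BAT minus eWAT of 1.29. Prdm16, a coregulator that holds the brown fate, averaged 25.3 CPM in BAT, 6.74 CPM in eWAT and 0.437 CPM in liver.

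Dio2 (ENSMUSG00000007682, chr12:90724552-90738438, - strand) averaged 56.8 CPM in BAT and 1.58 CPM in eWAT, a ratio of 35.8, and in liver 15 of 16 libraries held no count. Ucp3 (ENSMUSG00000032942, chr7:100472990-100486432, + strand), an uncoupling protein homologue best known from muscle, averaged 141 CPM in BAT, 46.5 CPM in eWAT and 0.138 CPM in liver. The coactivators of mitochondrial gene expression followed the same order in part. Ppargc1a (ENSMUSG00000029167, chr5:51454250-51567726, - strand) averaged 40.3 CPM in BAT, 10.7 CPM in liver and 5.43 CPM in eWAT, and Ppargc1b averaged 57.0, 8.18 and 4.51 CPM.

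Ucp2 (ENSMUSG00000033685, chr7:100493337-100502020, + strand), an uncoupling protein homologue expressed in many cell types including macrophages, had the opposite order between the fat depots. Its mean was 193 CPM in eWAT, 46.5 CPM in BAT and 26.8 CPM in liver, with a log2 difference BAT minus eWAT of -1.77 (SE 0.134). Gyk (ENSMUSG00000025059, chrX:85701937-85776819, - strand) averaged 135 CPM in BAT and 139.5 CPM in liver, a difference that was not called (log2 -0.38, SE 0.233, adjusted p 0.144), and 16.6 CPM in eWAT. Levels per kilobase use the union of annotated exons over all transcripts of a gene, which can exceed the length of the transcripts expressed. For Ucp2 this union is 6989 bases. The order between genes is therefore approximate. On this scale Ucp1 in BAT stood at 2853 CPM per kb. Ucp3 followed at 44.9, Gyk at 17.4, Ppargc1b at 14.3, Dio2 at 9.76, Ebf2 at 8.01, Ucp2 at 6.65, Ppargc1a at 6.12, Prdm16 at 2.71 and Zic1 at 1.12 CPM per kb. Neighbours from Gyk to Ppargc1b, and from Dio2 to Ppargc1a, lay within 1 SD of each other over the 16 libraries.

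**Figure D1:**
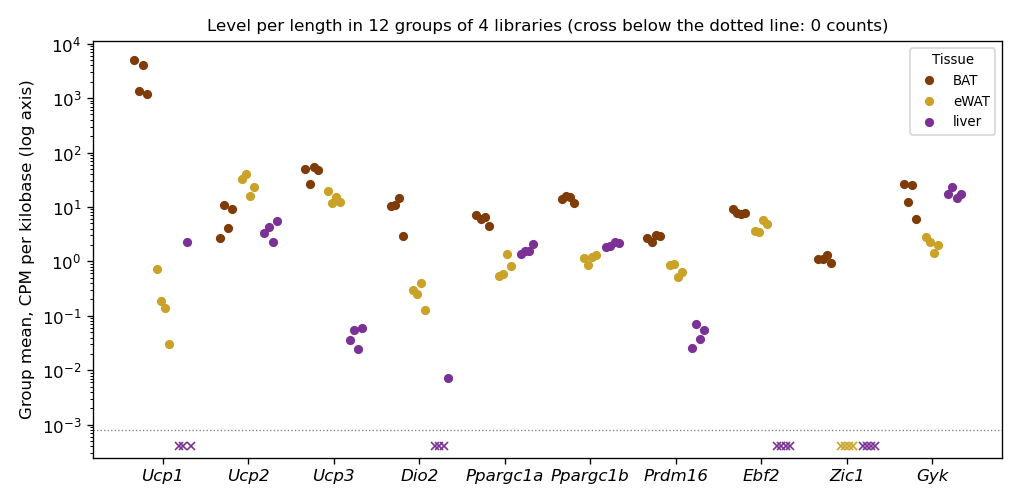
Mean level of the 10 members in each of the 12 groups of tissue, genotype and housing, in CPM per kb of exon on a log axis, with crosses for groups with 0 counts. Ucp1 stands at a mean of 2853 CPM per kb in BAT, and Zic1 has no count outside BAT.

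Housing at thermoneutrality changed 2 of 10 members in BAT of WT mice, Ucp1 downwards and Ucp2 upwards, where 32.5% of all genes tested were called. In KO mice the same number, 2 of 10 (Ucp1 lower, Ucp2 higher), was called, against 15.2% of all genes. The median log2 change of the 10 members was -0.221 in WT and -0.413 in KO, beside 0.112 and 0.0403 over all genes tested. The members' share called was thus below that of all genes in WT and somewhat above it in KO.

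Ucp1 stood at 4856, 8053, 8235 and 10920 CPM in the 4 WT RT libraries and at 1296, 1298, 1842 and 4397 CPM in the 4 WT TN libraries. In KO mice it stood at 4798, 5608, 6900 and 8751 CPM at RT and at 1110, 1865, 1923 and 2820 CPM at TN. The groups did not overlap in either genotype. The order of the group means was WT RT at 8016 ± 2481 CPM (SD, n = 4), KO RT at 6514 ± 1724, WT TN at 2208 ± 1481 and KO TN at 1929 ± 699.7, so that housing separated the groups while the genotypes lay within the spread of the libraries. The highest TN library was WT TN replicate 24 and the lowest WT RT library was replicate 12, both named above. Without that pair the change in WT was -2.62 on the log2 scale (adjusted p 5.7e-06), against -1.86 (SE 0.391, adjusted p 0.0018) with them. The pair was set apart for lying between the housing groups, so a larger change without it is partly built into that choice. Even at TN, Ucp1 thus remained at over 1000 CPM in every BAT library. Whether cells of a type were fewer or held less of a transcript cannot be told apart in bulk tissue.

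Ucp2 moved the other way and with less spread. WT RT libraries held 14.9, 19.5, 20.1 and 22.0 CPM, and WT TN libraries 73.1, 73.2, 75.5 and 76.6 CPM, a 3.90-fold rise (log2 1.96, SE 0.188, adjusted p 2e-06). KO RT libraries held 24.9, 29.0, 29.4 and 31.5 CPM, and KO TN libraries 44.6, 54.2, 60.1 and 94.8 CPM (log2 1.15, SE 0.183, adjusted p 0.00041). No RT library reached the lowest TN library in either genotype. WT TN replicate 24, in which Ucp1 was high for its group, was not set apart in Ucp2, at 75.5 CPM. Both genes were called in 25 of 25 alternative settings or subsets of libraries in each genotype.

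The scale matters for the size of these changes. With library totals in place of TMM, the median change over all genes rose from 0.112 to 0.652 in WT and from 0.0403 to 0.424 in KO. The split of called genes in WT moved from 2864 higher and 3003 lower to 6782 higher and 995 lower, and in KO from 1198 and 1537 to 3548 and 572. Relative to the median of all genes, Ucp1 fell by 1.97 in WT under TMM and by 1.99 under library totals, and Ucp2 stood 1.85 and 1.84 above it.

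Macrophage marker RNA moved with Ucp2 across housing, but not between the genotypes at RT. The 8 markers, all detected, summed to between 53.7 and 141 CPM in the WT RT libraries and between 252.5 and 568 CPM in the WT TN libraries. In KO the range was 61.8 to 73.0 CPM at RT and 213 to 316 CPM at TN. In eWAT, where the same markers summed to between 682 and 2354 CPM, Ucp2 was also higher than in BAT. The part of macrophage RNA in the Ucp2 values was not tested. By the GENCODE annotation, 9 of the 10 members, all but Ucp1, overlap another gene (Ucp2 overlaps Dnajb13 on the other strand), and the strand setting of the counting is not given in the sources used here.

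**Figure D2:**
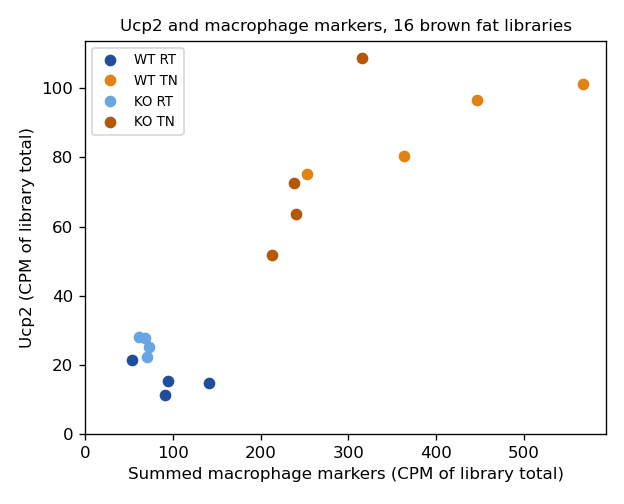
Ucp2 against the sum of 8 macrophage markers in each library, both in CPM of the library total. BAT libraries at TN, with sums of 213 to 568 CPM, lie above and to the right of BAT libraries at RT, with sums of 53.7 to 141 CPM.

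Ucp3 showed how far 1 library could weigh. It lay between 139 and 174 CPM in the WT RT libraries and at 40.6, 42.8, 78.8 and 163 CPM in the WT TN libraries, where 163 CPM belonged to replicate 24. The change was not called with that library (log2 -0.96, SE 0.363, adjusted p 0.054) and was called without it (log2 -1.55, SE 0.259, adjusted p 0.00019), while DESeq2 called it with all libraries (log2 -0.94, adjusted p 0.0154). In KO, Ucp3 held between 156 and 188 CPM at RT and stood at 98.6, 124, 154 and 225 CPM at TN, which overlapped, with a log2 change of -0.20 (adjusted p 0.79). Skeletal muscle also expresses Ucp3. Its markers summed to 5779 CPM in WT TN replicate 24 and to 5786 CPM in WT TN replicate 6, whose Ucp3 stood at 42.8 CPM. The part of muscle RNA in the Ucp3 values was not tested.

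Dio2 and Gyk spread widely within groups. Dio2 stood at 47.6, 48.04, 72.8 and 73.9 CPM in WT RT and at 8.04, 18.6, 32.8 and 193 CPM in WT TN, the last again replicate 24. With it the log2 change was 0.06 (SE 0.852, adjusted p 0.97), and without it -1.62 (SE 0.677, adjusted p 0.085), so the direction itself rested on that library. In KO, Dio2 stood at 38.3, 73.0, 105 and 128.5 CPM at RT and at 4.02, 11.1, 20.6 and 32.5 CPM at TN. These KO groups did not overlap, yet the change of -2.34 (SE 0.897) was not called at an adjusted p of 0.105. Fitted without WT TN replicate 24, which enters the shared estimate of the spread, the same change had an adjusted p of 0.0245.

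Gyk stood at 100.3, 107, 252 and 363 CPM in WT RT and at 33.1, 45.0, 51.1 and 247.5 CPM in WT TN, with replicate 24 once more the highest. Its change in WT was -1.13 (SE 0.691, adjusted p 0.23) with that library and -2.26 (SE 0.588, adjusted p 0.0104) without it. In KO it stood at 111, 122, 215 and 324 CPM at RT and at 17.7, 48.4, 54.6 and 62.0 CPM at TN, without overlap (log2 -2.08, SE 0.711, adjusted p 0.0699). Without WT TN replicate 24, 4 of 10 members were therefore called in WT (Ucp1, Ucp2, Ucp3, Gyk) and 4 of 10 in KO (Ucp1, Ucp2, Dio2, Gyk), where 35.9% and 16.6% of all genes were called.

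The coactivators and the identity factors did not pass the test for housing. Ppargc1a stood at 38.4, 38.9, 50.7 and 63.6 CPM in WT RT and at 24.5, 31.0, 31.7 and 74.2 CPM in WT TN (log2 -0.25, adjusted p 0.62), and the highest was replicate 24. Without that library the change was -0.73 (SE 0.296, adjusted p 0.0691). In the 4 KO RT libraries it ran from 32.5 to 54.0 CPM and in the 4 KO TN libraries from 18.0 to 45.0 CPM, which overlapped. Ppargc1b, its close relative, ran from 33.9 to 79.6 CPM in WT RT, from 41.0 to 88.4 in WT TN, from 48.6 to 81.7 in KO RT and from 34.7 to 61.2 in KO TN.

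Ebf2 ran from 57.2 to 78.7 CPM in WT RT and from 45.3 to 67.0 CPM in WT TN (log2 -0.29, adjusted p 0.295). Prdm16 lay between 13.9 and 33.7 CPM in every BAT group, and its log2 changes with housing were -0.19 in WT and -0.08 in KO. Zic1 ran from 5.21 to 7.07 CPM in WT RT, and in WT TN it was lowest in replicate 24, at 2.43 CPM, against 6.37 to 9.21 CPM in the other 3. Under library totals the WT changes of Ppargc1a, Prdm16 and Ebf2 took the other sign, at 0.22, 0.28 and 0.22. None of these 3 identity factors, nor either coactivator, was called with housing in the fit to all 16 BAT libraries. Leaving out the 6 libraries with over 1000 CPM of muscle markers called Ppargc1a in WT as well, at -0.78 (adjusted p 0.034). In all, 6 of 10 members were then called, where 27.1% of all genes were called. The libraries left out include WT TN replicate 24, and the WT TN group then rests on replicates 1 and 7 only. Likewise KO RT rests on replicates 9 and 10, and KO TN on replicates 3 and 4. The part of muscle RNA in this change was not tested apart from that of replicate 24.

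**Figure D3:**
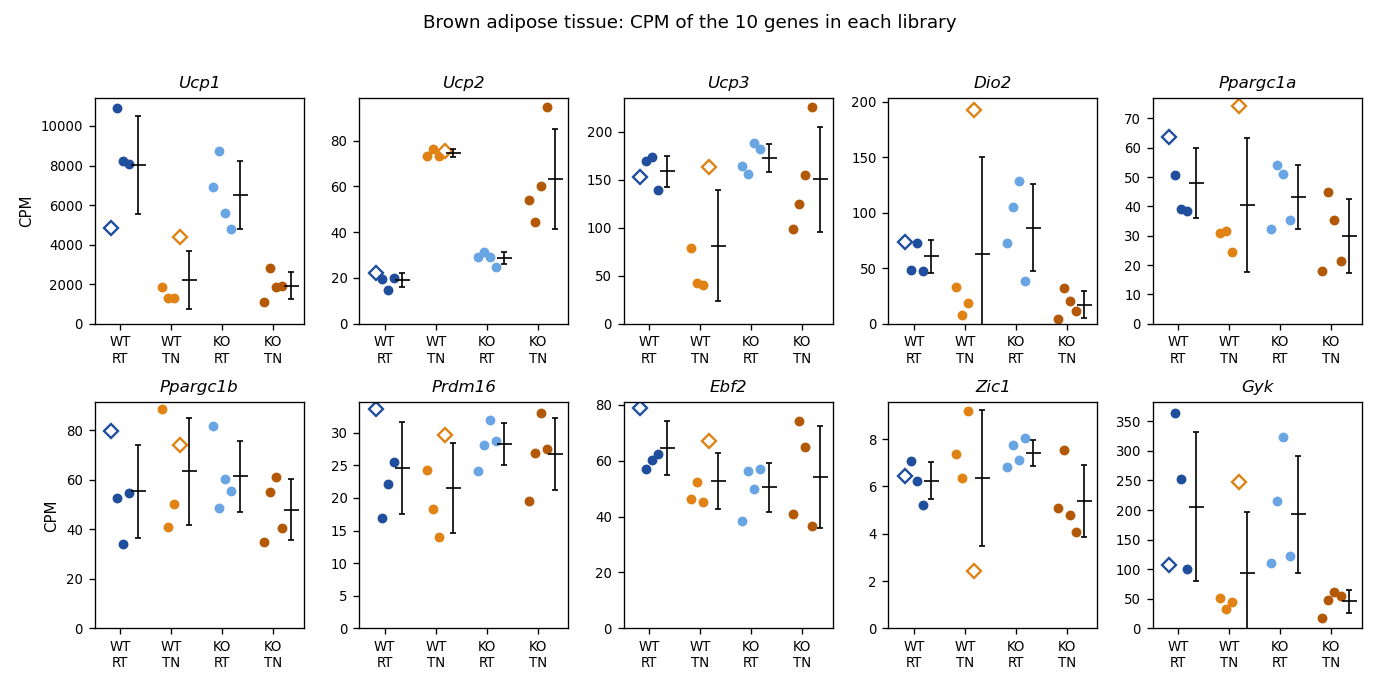
CPM of each member in the 16 BAT libraries by genotype and housing, with points for libraries, black bars for mean ± SD, and open diamonds for WT RT replicate 12 and WT TN replicate 24. Ucp2 runs from 73.1 to 76.6 CPM in WT TN with no outlying library, while Dio2 in the same group runs from 8.04 to 193 CPM.

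**Figure D4:**
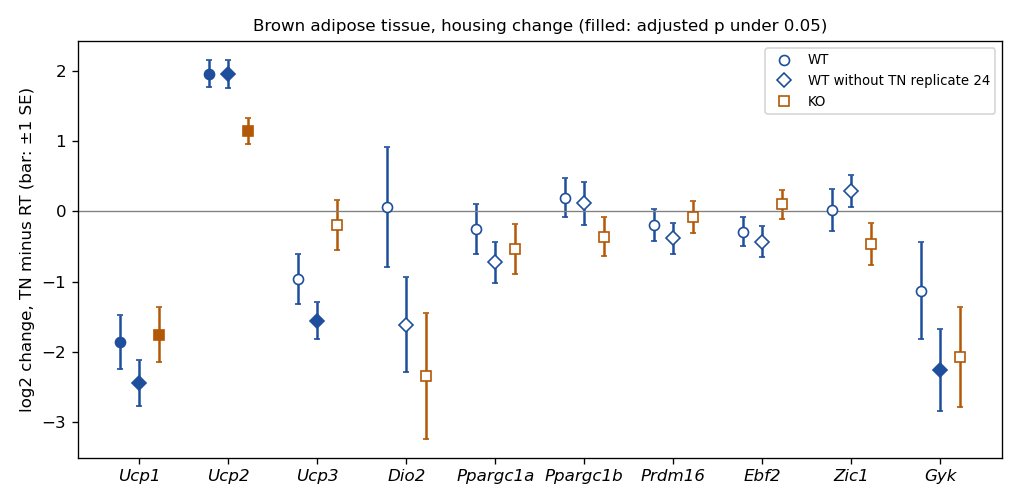
Log2 change TN minus RT of each member in BAT with bars of 1 SE, in WT, in WT without TN replicate 24, and in KO, with filled points where the adjusted p was under 0.05. Dio2 in WT moves from 0.06 to -1.62 when that library is left out, and Ucp2 stays at 1.96.

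Between the genotypes at the same housing, no member was called in BAT with edgeR. At RT 0.0887% of all genes tested were called (16 genes, but 1979 without WT RT replicate 12 and 981 by DESeq2) and at TN 0.0%, and for the interaction of genotype and housing 0.0%. At an unadjusted p under 0.05, 1 member passed in each: Ucp2 at RT, Ucp3 at TN and Ucp2 in the interaction. DESeq2 called no member in any of these comparisons. Over all genes, 945 passed the unadjusted threshold at TN and 1832 in the interaction, and DESeq2 called 20 and 21. Ucp2 at RT was higher in all 4 KO libraries, from 24.9 to 31.5 CPM, than in the 4 WT libraries, from 14.9 to 22.0 CPM (log2 0.58, SE 0.183, adjusted p 0.123). Without WT RT replicate 12 this difference was called (log2 0.66, adjusted p 0.0405), as were 10.6% of all genes. The 5 endothelial markers, all detected, summed to between 495 and 987 CPM in KO RT and between 159 and 527 CPM in WT RT, which overlapped only through replicate 12, the highest of WT. With housing they ran from 301 to 1002 CPM in WT TN and from 742 to 1207 CPM in KO TN. Their part in the Ucp2 values was not tested.

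The interaction was sensitive to the 2 libraries that stood apart. Both are WT and were set apart because they lay between RT and TN. Leaving them out tends to widen housing changes in WT and leaves the KO libraries as they were. A difference between the genotypes is thus partly built into this choice, and the fit without them cannot show an interaction. Without both, the housing change of Ucp2 was smaller in KO than in WT by -0.89 on the log2 scale (adjusted p 0.048), that of Ucp3 differed by 1.37 (adjusted p 0.030), and 992 genes were higher and 990 lower of 18548 tested (10.7%). With all libraries the values were -0.82 (SE 0.257, adjusted p 0.443) for Ucp2 and 0.77 (adjusted p 0.598) for Ucp3. The interaction of Ucp1 was not called in either fit. Its KO minus WT change at TN was -0.19 with all libraries and 0.38 without WT TN replicate 24, and neither was called.

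In eWAT the genotypes differed in Ucp2 and Ppargc1a at RT. Comparing KO with WT at RT, 2 of 9 members tested (all but Zic1) were called, Ucp2 lower and Ppargc1a higher, where 4.34% of all genes were called. Ucp2 stood at 163, 202, 217 and 324 CPM in WT RT and at 97.04, 109, 117.5 and 118 CPM in KO RT. All KO libraries lay below all WT libraries, by 2.05-fold in the fit (log2 -1.04, SE 0.261, adjusted p 0.0361). Ppargc1a stood at 3.28, 3.35, 3.43 and 4.35 CPM in WT RT and at 6.29, 6.63, 9.40 and 13.2 CPM in KO RT, 2.47-fold higher (log2 1.30, SE 0.308, adjusted p 0.023). Each call was near the threshold: that of Ucp2 was lost in 10 of 22 alternatives (adjusted p 0.000767 to 0.139) and that of Ppargc1a in 4.

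WT RT replicate 18 held 939 CPM of epididymis markers, against at most 17.6 CPM in the other eWAT libraries, and was the highest WT RT library for Ucp2. Without it the KO minus WT change at RT was -0.78 for Ucp2 (adjusted p 0.139) and 1.30 for Ppargc1a (adjusted p 0.0673), and the genes called overall fell to 79 higher and 208 lower. Macrophage markers summed to between 891 and 1260 CPM in WT RT and between 682 and 921 CPM in KO RT, and their part in the Ucp2 difference was not tested.

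The groups of WT RT and KO RT also did not overlap for Ucp1, Ebf2 and Gyk, which did not pass the test. Ebf2 ran from 17.9 to 30.0 CPM in WT and from 33.8 to 50.3 CPM in KO (log2 0.70, adjusted p 0.0928), and DESeq2 gave an adjusted p of 0.0232. Gyk ran from 16.1 to 36.2 CPM in WT and from 9.20 to 14.5 CPM in KO (log2 -1.02, adjusted p 0.133). Ucp1 was near its detection limit in eWAT, from 0.50 to 2.29 CPM in WT and from 0.0681 to 0.391 CPM in KO (log2 -2.32, SE 1.13, adjusted p 0.295). Ppargc1a and Ebf2 thus lay higher in every KO RT library than in any WT RT library, while Ucp1 lay lower in every one. The share of all genes without overlap is not given, so this is not shown to be particular to the members.

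At TN no member was called between the genotypes in eWAT with edgeR, where 0.586% of all genes were called, although 3 members had an unadjusted p under 0.05 (Ucp2, Ppargc1b and Ebf2) and DESeq2 called 1. Ucp2 stood at 150.5, 221.5, 349 and 387 CPM in WT TN and at 125.5, 147, 178 and 188 CPM in KO TN, which overlapped (log2 -0.79, SE 0.259, adjusted p 0.173). Without WT TN replicate 8, the lowest of its group, the difference was -0.99 (adjusted p 0.0377). For the interaction in eWAT 0.0% of all genes were called, 0 members had an unadjusted p under 0.05 and DESeq2 called 0, so the genotype difference at RT was not shown to differ from that at TN.

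Housing called no member in eWAT in either genotype with edgeR, where 0.0% of all genes were called in WT and 1.74% in KO. By DESeq2 1 member was called in each, Ucp3 in WT and Dio2 in KO. Ucp3 ran from 54.3 to 76.4 CPM in WT RT and from 34.8 to 38.5 CPM in WT TN, without overlap (log2 -0.79, SE 0.169, adjusted p 0.142; DESeq2 adjusted p 0.0048). At an unadjusted p under 0.05, 1 member passed in WT and 2 in KO, and over all genes in WT 1324 passed it and DESeq2 called 100. In the interaction over all genes 1439 passed the unadjusted threshold and DESeq2 called 12.

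**Figure D5:**
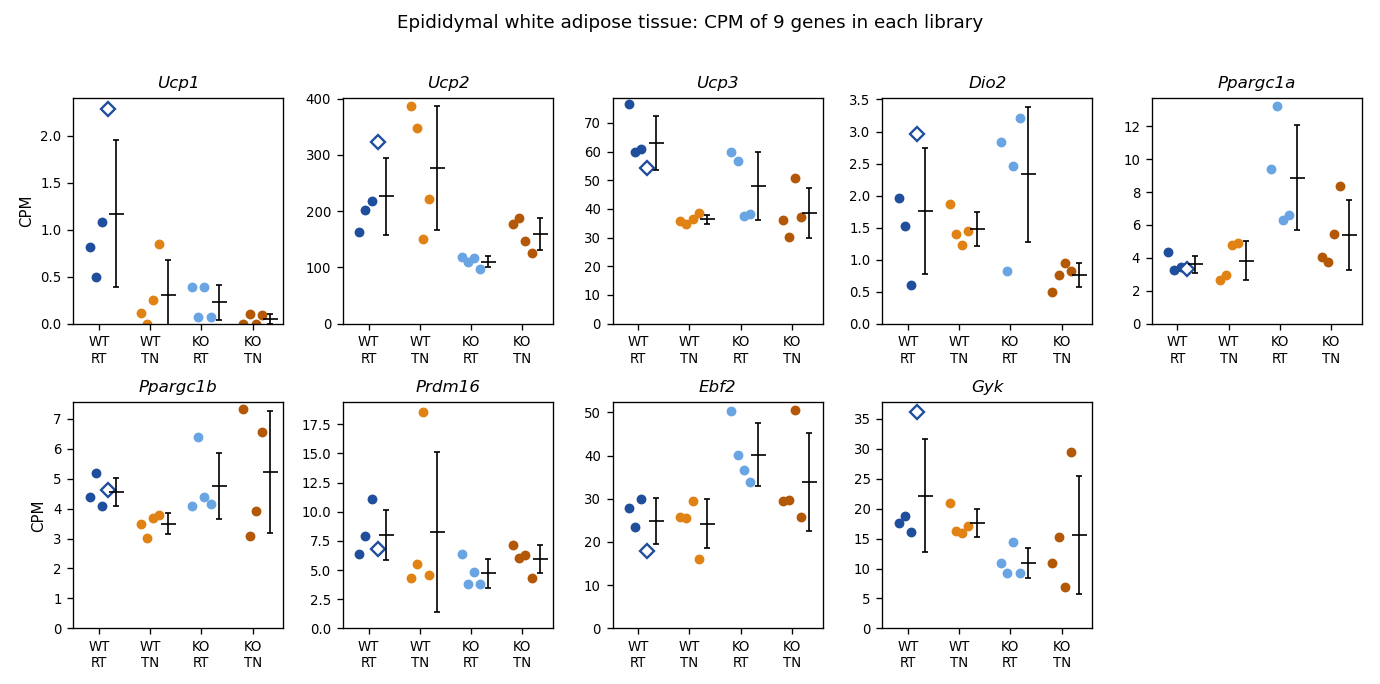
CPM of the 9 members with counts in the 16 eWAT libraries by genotype and housing, with points for libraries, black bars for mean ± SD, and an open diamond for WT RT replicate 18. Ppargc1a at RT runs from 3.28 to 4.35 CPM in WT and from 6.29 to 13.2 CPM in KO.

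In liver 6 members passed the filter on low counts (Ucp2, Ucp3, Ppargc1a, Ppargc1b, Prdm16 and Gyk), and none was called by edgeR in any of the 5 comparisons. The share of all genes called was 0.0227% for housing in WT, 0.114% for housing in KO, 0.0853% for genotype at RT, 3.18% for genotype at TN and 0.0% for the interaction, where 1290 genes had an unadjusted p under 0.05 and DESeq2 called 17. Members with an unadjusted p under 0.05 numbered 1 for housing in WT (Gyk), 1 for housing in KO (Ucp2), 0 for genotype at RT, 1 for genotype at TN (Gyk) and 1 for the interaction (Ucp2). DESeq2 called 1, Ucp2 with housing in KO, and 0 in the other 4.

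Ucp2 in liver stood at 11.1, 11.9, 16.3 and 24.9 CPM in KO RT and at 23.4, 27.8, 39.2 and 61.9 CPM in KO TN. The ranges overlapped by 1 library each, with a log2 change of 1.25 (SE 0.294, adjusted p 0.095; DESeq2 adjusted p 0.0018). Macrophage markers summed to between 158 and 256 CPM in those RT libraries and between 272 and 640 CPM in the TN libraries, and their part was not tested. Gyk, which in hepatocytes takes glycerol into glucose and lipid synthesis, ran from 105 to 115 CPM in KO RT and from 116 to 150 CPM in KO TN, without overlap (log2 0.29, adjusted p 0.551). Ppargc1a ran from 9.56 to 10.7 CPM in KO RT and from 11.8 to 15.2 CPM in KO TN, also without overlap (log2 0.41, adjusted p 0.54).

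The housing changes of Ucp2 and Gyk differed between tissues by a test of the difference itself over all 48 libraries, averaged over genotypes. For BAT against eWAT 2 members were called where 16.5% of all genes were (1750 higher and 1860 lower, or 5786 and 622 under library totals). Ucp2 rose more in BAT, by 1.15 on the log2 scale (SE 0.262, adjusted p 0.00175), and Gyk fell by 1.69 more (SE 0.471, adjusted p 0.0108). With the replicate number as a block the difference for Gyk was -1.46 and no longer called (adjusted p 0.155), while the other 53 of 54 alternatives called it. For BAT against liver 2 members were called where 16.8% of all genes were (1537 higher and 2138 lower, or 4957 and 988 under library totals), Ucp2 at 0.79 (SE 0.262, adjusted p 0.0325) and Gyk at -1.95 (SE 0.47, adjusted p 0.0027). Gyk against liver was called in 54 of 54 alternatives, and Ucp2 against liver was lost in 8 of them, with an adjusted p of up to 0.0823. The BAT values enter both differences, so these are not independent.

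Genes of the same pathway were counted from lists drawn up with the members. The counts with housing in BAT stand beside 32.5% of all genes called in WT and 15.2% in KO. Among 19 genes of adrenergic and cAMP signalling tested in BAT, 5 were higher and 5 lower at TN in WT, with a median change of -0.196. The adenylyl cyclase Adcy4 rose by 1.35, while Gnas, the stimulatory G protein subunit, fell by 1.10, from a mean of 2931 to 1367 CPM. In KO 1 gene of this list was higher and 3 lower. Of 9 thyroid hormone genes 2 were higher, Ncor1 by 0.69 and Thra by 0.43, and 1 was lower, the lipogenic target Thrsp at -2.38, which is 33.3% of the list and near the share of all genes.

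Of 26 transcription factors and co-regulators, 5 were higher and 7 lower in WT, among them Nrip1, a repressor of Ucp1, at 1.31, Pprc1, a relative of Ppargc1a, at 0.93, and the nuclear receptor Esrra at -0.87. Of 21 brown thermogenic genes 0 were higher and 15 lower in WT (median -1.27), and 0 and 10 in KO (median -0.784). Examples in WT are Elovl3, a fatty acid elongase of active brown fat, at -7.22, Acot11, a thioesterase, at -3.66 and Me1, malic enzyme, at -3.00. Of 7 white adipocyte genes 4 were higher in WT, Lep at 1.11, Npr3, the natriuretic peptide clearance receptor, at 1.08 and Igfbp3 at 0.90 among them, and 3 in KO.

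Fuel supply genes fell in part. Of 17 genes of fatty acid supply 1 was higher and 7 lower in WT, and 1 and 6 in KO. Acsl5, which activates fatty acids, fell by 3.50, from 624 to 55.0 CPM, Cpt2, of mitochondrial import, by 1.95 and Gpd1, which makes glycerol 3-phosphate, by 1.65. Of 7 beige genes 2 were lower in WT, Slc36a2 at -0.76 and P2rx5 at -0.60, a share of 28.6%, below that of all genes, and 0 in KO. In BAT between the genotypes these lists held 1 call, Lep, lower in KO at RT (log2 -2.19, adjusted p 0.0499). In eWAT at RT, Esrra was higher in KO (0.44) and Kcnk3 lower (-1.44). In liver at TN, 5 of 17 brown thermogenic genes and 4 of 16 fatty acid supply genes were called, all lower in KO, among them the fatty acid transporter Cd36 at -1.10 and the lipid droplet protein Plin5 at -0.81.

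Genes were ranked by how closely they followed Ucp1 over the 16 BAT libraries, as Pearson's r of log2 CPM with 0.5 CPM added. Of 8077 genes ranked, Slc25a17 (0.977), Mrps27 (0.975), Mmp19 (0.973), Prelid3b (0.972) and Sod2 (0.972) came first. Slc25a17 is a peroxisomal carrier, Mrps27 a mitochondrial ribosomal protein and Sod2 the mitochondrial superoxide dismutase. Of the members, Gyk (0.878), Dio2 (0.793), Ppargc1a (0.665) and Ucp3 (0.647) followed Ucp1 most, Ebf2 (0.344), Prdm16 (0.272) and Ppargc1b (0.191) less, and Ucp2 ran against it (-0.833). These 16 points share 2 housing temperatures and are no independent sample, so the values describe the libraries. Over the 12 group means, where tissue sets most of the spread, Fabp3 (0.993), Cox7a1 (0.992), Sucla2 (0.99), Lgr6 (0.985) and Perm1 (0.985) were nearest of 10776 genes.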

How the data were processed

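The deposited values are raw counts per Ensembl gene and library, 1 table for each of 48 libraries, and the authors' processing notes name fastp, STAR 2.6.1d, featureCounts 1.5.0-p3 and GRCm38/mm10, per the submitters' processing notes, with no role or order. Per the labels' protocols, RNA was extracted from snap-frozen tissue and made into NEBNext Ultra libraries, which were read paired-end. The labels call the replicates biological. The annotation release and the strand setting are not given in the sources used here. Symbols, exon lengths and coordinates came from GENCODE M21 (GRCm38), which named 52073 of 56748 identifiers (91.8%).

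A separate model per tissue was fitted to 16 libraries with edgeR 4.0.16 under R 4.3.3, with 1 mean per group, TMM scaling, the low-count filter filterByExpr (minimum count 10) and robust quasi-likelihood F tests. P-values are two-sided, and the Benjamini-Hochberg adjustment ran over every gene tested in a comparison. This left 18032 genes in BAT, 18933 in eWAT and 17594 in liver. Differences between tissues came from 1 fit to all 48 libraries (21910 genes). Marker sums use CPM of library totals. Where every library of a group held 0 counts, a fold is given against a floor of 3 counts per library.

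The members and lists were chosen with earlier results of these data known. The members were always named, and of each list up to 3 called genes with the largest change in BAT of WT mice and a mean of at least 10 CPM. Alternatives were RLE scaling, library totals, no filter, at least 1 CPM in 4 libraries, DESeq2 1.42.0, the 8 libraries compared, each library left out in turn and a replicate block. Leaving out the 2 BAT libraries that stood apart, or those with over 1000 CPM of muscle markers, was chosen after seeing the data. The fits were tested on simulated counts. 1 gene that the naming rule selects is not reported here. Reads and isoforms were not analysed here.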

Additional observations from a re-analysis of the deposited data

Results flagged for a closer look

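In 9 of 89 groups of 4 libraries tested, 1 library lay far from the other 3 by Dixon's outlier test. Its rate of about 1 in 20 holds for independent, normally distributed values. These were CPM values, 3 of the 9 came from 1 library, and each of the 9 was the highest of its group. That rate need not apply here. In BAT, 3 of these values belonged to WT TN replicate 24, with Dio2 at 193 CPM, Ppargc1a at 74.2 CPM and Gyk at 247.5 CPM. In liver, Ucp1 stood at 14.7 CPM in KO RT replicate 19, against 0 counts in the other 3 libraries of its group. In eWAT the values were Ppargc1a at 4.35 CPM in WT RT replicate 12, Ppargc1b at 6.40 CPM in KO RT replicate 10 and Prdm16 at 18.5 CPM in WT TN replicate 8. The remaining values in eWAT were Ebf2 at 50.6 CPM in KO TN replicate 5 and Gyk at 36.2 CPM in WT RT replicate 18.

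The housing change differed between tissues for 2 members by edgeR's quasi-likelihood test of the difference. The change of Ucp2 in BAT exceeded that in eWAT by 1.15 (adjusted p 0.00175) and that in liver by 0.79 (adjusted p 0.0325) on the log2 scale. The corresponding differences for Gyk were -1.69 (adjusted p 0.0108, but 0.155 with the replicate number as a block) and -1.95 (adjusted p 0.0027).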

How the results depend on the processing

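The number of members called moved with some choices, and the cause was not tested. DESeq2 called 3 members with housing in BAT of WT mice (6639 genes in all), 4 in BAT of KO (3436 genes), 1 in eWAT of WT, 1 in eWAT of KO and 1 in liver of KO, and between genotypes in eWAT 4 at RT and 1 at TN. Without a filter on low counts 1 was called in eWAT between genotypes at RT. Without both BAT libraries that stood apart, 4 were called with housing in WT, 4 in KO, 1 between genotypes at RT and 2 in the interaction, and without the muscle-rich BAT libraries 6 in WT. With 1 library left out, the number ran from 2 to 4 with housing in BAT in either genotype and from 0 to 1 between genotypes at RT. In eWAT between genotypes it ran from 0 to 3 at RT and from 0 to 1 at TN. Over all genes, DESeq2 called 1154 with housing in eWAT of KO against 330 by edgeR, between genotypes in eWAT 1509 against 821 at RT and 675 against 111 at TN, and in liver 75 against 4 with housing in WT, 362 against 20 in KO, 203 against 15 between genotypes at RT and 1111 against 560 at TN. Library totals moved the split of called genes from 194 higher and 136 lower to 253 and 80 with housing in eWAT of KO, and from 235 and 325 to 397 and 168 between genotypes in liver at TN. In liver the number of members ran from 0 to 1 with housing in KO and between genotypes at TN. Between BAT and liver it ran from 9 to 10 for levels and from 1 to 3 for housing changes.

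Signs that turned belonged to values that were not called with all libraries. With housing in WT, Dio2 stood at -1.51 without both libraries that stood apart and at -1.23 without the muscle-rich ones, and leave-one-out fits ran from -1.62 to 0.46. Under library totals Ppargc1a stood at 0.22, Prdm16 at 0.28 and Ebf2 at 0.22. Zic1 stood at -0.046 without the BAT libraries whose names are written with a low line, and ran from -0.20 to 0.29 with 1 library left out. With housing in KO, library totals gave Ucp3 at 0.18, Ppargc1b at 0.033 and Prdm16 at 0.30. Prdm16 stood at 0.073 without the low-line names and at 0.24 without the muscle-rich libraries, and ran from -0.16 to 0.049 with 1 library left out, while Ebf2 ran from -0.064 to 0.25. Between genotypes at TN, Ucp1 stood at 0.38 without both libraries and at 0.58 without the muscle-rich ones, and ran from -0.44 to 0.38 with 1 left out. Gyk stood at 0.086 and 0.20 under the same settings and ran from -1.34 to 0.086, and Dio2 stood at 0.052 without the muscle-rich libraries.

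Replicate numbers are shared by tissues of a genotype and housing group. Deviations from the group means of same-numbered BAT and eWAT libraries had a median correlation of -0.208 (1 of 11 pairs over 0.1). For different numbers it was 0.0378. Between BAT and liver the medians were 0.0406 for same and -0.00646 for different numbers, and between eWAT and liver 0.0344 and -0.0143. Such correlations cannot tell whether a shared number stands for the same mouse. With the replicate block 1 member, Ucp2, was called in the difference of housing changes between BAT and eWAT, Gyk standing at -1.46 (adjusted p 0.155), and no other call changed. No paired analysis was possible between genotypes or housing temperatures because they share no numbers.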

Other observations

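Hepatocyte marker RNA was detected in BAT, with medians of the summed markers of 98.9 CPM in WT RT, 653 CPM in WT TN, 176 CPM in KO RT and 922 CPM in KO TN. The medians were higher in eWAT, at 2150 CPM in WT RT, 1324 CPM in WT TN, 3322 CPM in KO RT and 1408 CPM in KO TN. Muscle markers in the KO BAT libraries ran from 2.24 to 3892 CPM at RT and from 1.57 to 7770 CPM at TN, and in the WT BAT libraries from 1.58 to 505 CPM at RT.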
